A study of Mus musculus with 8 samples.

Results

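The 35 genes described here belong to the adipocyte lineage and to lipid storage. They were chosen by gene symbol, and all 35 were found among the 52636 genes of the count matrix. They fall into 7 classes: adipogenic transcription factors, adipokines and other secreted proteins, fatty acid uptake, lipid droplet proteins, lipolysis, fatty acid synthesis and triglyceride synthesis. The detoxification gene Mgst1 stands alone. The genes were measured by polyA RNA sequencing, in bulk, of mesenchymal stem cells that carry the leptin receptor (LEPR+) and were sorted from the bone marrow of C57BL/6 mice. One group of mice was given LTβR-Ig, a decoy that takes up the ligands of the lymphotoxin β receptor (LTβR). The control group was given HEL-Ig, an IgG1 against hen egg lysozyme. Each was injected into a vein at 150 µg weekly over 3 weeks, and each group has 4 libraries. The labels give no age, sex or batch, and they do not say whether a library came from 1 mouse or several. The p-values therefore measure the spread between these libraries, which may be technical.

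LEPR+ cells are stromal cells that surround the marrow sinusoids, and in adult mice they can give rise to osteoblasts and to marrow adipocytes. Adipocyte formation is driven by PPARγ and C/EBPα, with C/EBPβ and C/EBPδ acting earlier in the cascade. A mature white adipocyte stores triglyceride in a large droplet coated by perilipin 1 and CIDEC, and it secretes adiponectin and leptin. The question put to these genes is whether the programme differed in LEPR+ cells when LTβR was inhibited.

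Libraries held between 52378101 and 64403177 counts, and the 35 members together took 0.820 to 1.22% of them. All 16 markers fixed for LEPR+ stromal cells, which include the members Adipoq and Lpl, were detected in both groups and 0 passed the edgeR test. At an unadjusted p, 2 of the 16 were higher (Cdh11 and Gas6, log2 fold changes 0.34 and 0.41), against 3.39% of all genes tested. Another 3 were lower (Kitl -0.58, Snai2 -0.52 and Pdgfra -0.29), against 2.93% of all genes tested. The groups did not overlap for those 3. Over all genes tested, 2.53% had all LTβR-Ig libraries below the controls. Lepr had 3993, 3977, 3159 and 4498 CPM in LTβR-Ig libraries, and 4270.0, 4372, 4297 and 4282 CPM in control libraries. CPM is the count per 1000000 counts of the library after TMM scaling, and values of 4 libraries stand in the order of replicates 1 to 4. In bulk RNA, fewer cells of a type and less RNA per cell cannot be told apart.

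In both groups Adipoq and Lpl had the highest levels, and Lep, Cidec, Plin1, Plin4 and Retn were at or near 0. Levels are compared between genes per length, in FPKM (the CPM divided by the annotated exon length in kilobases). Adipoq, which encodes adiponectin, stood above every other member, with 2972 ± 663 FPKM in LTβR-Ig and 2642 ± 435 FPKM in control libraries (SD, n = 4 each). Lpl, the lipoprotein lipase that frees fatty acids from circulating lipoproteins, followed with 358 ± 30.3 FPKM in LTβR-Ig and 339 ± 52.5 FPKM in control libraries. Mgst1, a membrane glutathione transferase gene, had 317 ± 48.0 FPKM in LTβR-Ig and 268 ± 33.6 FPKM in control libraries. Apoe, which encodes a lipid carrier protein, had 233 ± 65.1 FPKM in LTβR-Ig and 239 ± 104 FPKM in control libraries. With Angptl4, these were the only members whose mean over all 8 libraries passed 100 FPKM.

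At the other end stood 5 genes, chosen here for their low level. Other genes of the mature adipocyte list varied in level, and Adipoq led the members. Car3 averaged 390 ± 310 CPM in LTβR-Ig and 256 ± 214 CPM in control libraries (SD, n = 4 each). Aqp7 averaged 44.6 CPM in LTβR-Ig and 34.2 CPM in control libraries, and Slc2a4 14.4 CPM in LTβR-Ig and 12.2 CPM in control libraries. Further genes of the list were low. Cfd averaged 4.94 CPM in LTβR-Ig and 5.56 CPM in control libraries, and Adrb3 4.38 CPM in LTβR-Ig and 6.12 CPM in control libraries. Pck1 had 0 counts in all 8 libraries. Lep, which encodes leptin, had 0 counts in all 8 libraries, which allows at most 0.00644 CPM over the 8 together. Cidec, whose product fuses lipid droplets, had 0 counts in all 4 LTβR-Ig libraries, and 73, 65, 0 and 0 counts in control replicates 1 to 4. Plin1, which encodes the droplet coat protein of white adipocytes, had 9, 95, 17 and 0 counts in LTβR-Ig replicates 1 to 4, and 7, 79, 0 and 34 counts in control replicates 1 to 4. Both genes were thus seen in some libraries only. Retn, the resistin gene, had 6 counts in LTβR-Ig replicate 3, 15 in control replicate 1, and 0 elsewhere. Plin4, another perilipin gene, had 16 counts in LTβR-Ig replicate 2, 17 and 35 in control replicates 1 and 3, and 0 elsewhere. None of these 5 genes was detected in every library of either group. Limits from counts of 0 cover counting error only.

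**Figure D1:**
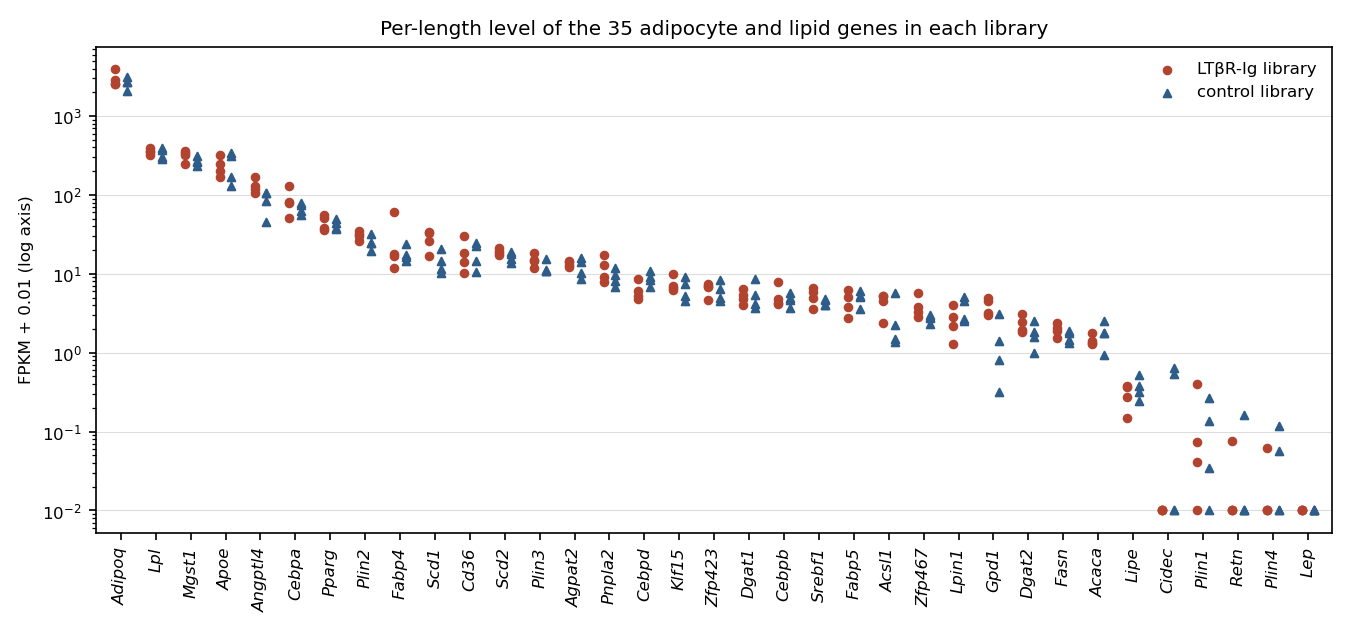
Level of each of the 35 genes in every library, in FPKM with 0.01 added so that libraries at 0 can be drawn, on a log axis; genes run from the highest mean to the lowest. LTβR-Ig libraries are circles and control libraries triangles. Adipoq stands alone at the top, and Cidec, Plin1, Retn, Plin4 and Lep form the bottom group with libraries at 0.

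In this order of levels, only 3 of 34 neighbouring pairs had library ranges that did not meet. The lowest Adipoq library had 2054 FPKM and the highest Lpl library 395 FPKM. Pparg was never below 36.2 FPKM, and the next gene, Plin2, never above 34.5 FPKM. Acaca was never below 0.921 FPKM and the hormone-sensitive lipase gene Lipe never above 0.507 FPKM. The ranges of all other neighbours overlapped across the libraries. Such ranges do not compare genes within the same library. Cebpa and Pparg, for example, had overlapping ranges, but Cebpa lay above Pparg within every library (FPKM ratios from 1.12 to 3.35). The order within libraries was not examined for every pair.

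The start regions of 4 genes are shown because these genes stand for both ends of the range of levels: Adipoq and the transcription factor gene Cebpa were well expressed, whereas Lep and Plin1 were at or near 0. Each is 300 bases of RefSeq on GRCm38.p6, from 250 bases before the annotated start to 50 after it, 5′ to 3′ on the strand of the gene. Adipoq lies at chr16:23146286-23146585 (plus strand), Cebpa at chr7:35119043-35119342 (plus strand), Lep at chr6:29059971-29060270 (plus strand) and Plin1 at chr7:79732727-79733026 (minus strand). Capitals mark matches, on either strand, to any of 6 motifs.
Adipoq: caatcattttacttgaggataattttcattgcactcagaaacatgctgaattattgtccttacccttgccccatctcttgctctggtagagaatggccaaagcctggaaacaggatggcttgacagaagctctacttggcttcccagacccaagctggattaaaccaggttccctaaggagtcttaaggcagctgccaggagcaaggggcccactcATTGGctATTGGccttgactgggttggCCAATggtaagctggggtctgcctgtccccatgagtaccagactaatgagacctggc
Cebpa: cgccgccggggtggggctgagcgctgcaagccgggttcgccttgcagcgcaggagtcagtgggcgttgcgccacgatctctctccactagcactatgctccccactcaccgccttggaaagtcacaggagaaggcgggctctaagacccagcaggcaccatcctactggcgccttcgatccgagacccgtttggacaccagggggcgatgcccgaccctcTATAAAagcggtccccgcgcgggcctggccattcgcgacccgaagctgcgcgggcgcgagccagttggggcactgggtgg
Lep: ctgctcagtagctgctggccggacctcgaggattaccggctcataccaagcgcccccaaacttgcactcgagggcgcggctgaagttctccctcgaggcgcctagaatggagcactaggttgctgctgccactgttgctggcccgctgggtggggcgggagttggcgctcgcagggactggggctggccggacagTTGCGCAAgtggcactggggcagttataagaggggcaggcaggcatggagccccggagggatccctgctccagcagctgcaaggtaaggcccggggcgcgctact
Plin1: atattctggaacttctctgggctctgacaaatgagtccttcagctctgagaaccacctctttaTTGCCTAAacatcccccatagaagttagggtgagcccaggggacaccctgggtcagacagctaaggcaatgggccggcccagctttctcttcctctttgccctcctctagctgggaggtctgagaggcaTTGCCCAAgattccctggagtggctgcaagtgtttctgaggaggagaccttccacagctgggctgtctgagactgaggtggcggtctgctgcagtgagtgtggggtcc
The motifs were the TATA box with the letters TATAAA, the CCAAT box, the E-box with the letters CACGTG, the C/EBP motif with the letters TTGCNNAA, the sterol element with the letters TCACNCCAC, and the DR1 element read by PPARγ with RXR, which is AGGTCA given 2 times in the same direction with 1 base between. The Adipoq window held 3 CCAAT boxes, 7, 27 and 34 bases before the start, with no overlap. The Cebpa window held a TATA box 30 bases before its start. C/EBP letters stood in the windows of the genes at or near 0, at 55 bases in Lep and at 58 and 187 bases in Plin1. Among all 32851 windows of this length, 37.4% held a CCAAT box, 13.6% a TATA box, 10.8% the C/EBP letters, 7.15% an E-box, 1.24% the sterol element and 0.0396% DR1. Of the 36 windows of the 25 members with an entry, 33.3% held a CCAAT box, 11.1% a TATA box, 16.7% the C/EBP letters, 8.33% an E-box and 2.78% the sterol element, and 0 held DR1. A match is a run of letters and not a measured site.

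No member passed the test between LTβR-Ig and control libraries. The genes that came closest act in fatty acid desaturation, glycerol phosphate supply and lipase control: Scd1, Gpd1 and Angptl4 were higher in LTβR-Ig libraries at an unadjusted p under 0.05. The lineage genes Pparg, Lpl and Adipoq had log2 fold changes of 0.08, 0.08 and 0.17. Of the 35 members, 31 had enough counts for the test, and Lep, Retn, Plin4 and Cidec did not. With Benjamini-Hochberg adjustment over 16045 genes, edgeR's quasi-likelihood F test called 0 members higher and 0 lower at 0.05. Over all genes tested it called 0% higher and 0.0374% lower.

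By the unadjusted edgeR p, at 0.05, 3 of 31 members (9.68%) were higher, against 3.39% of all genes tested, and 0 were lower, against 2.93%. In either direction the share of all genes was 6.32%. Of the members tested, 24 had a log2 fold change above 0 and 7 below 0. That is 77.4% above 0, against 49.7% of all genes tested. The median log2 fold change was 0.22 over the members and 0.00 over all genes tested. The groups did not overlap for 1 member, Angptl4 (3.23% of members). Over all genes tested, 2.36% had all LTβR-Ig libraries above the controls and 2.53% had all below, 4.89% together. These counts over members are small and describe the list only.

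Other tests gave the same 3 genes on the higher side. DESeq2 called 0 members higher and 0 lower after adjustment, against 0.644% and 0.66% of all genes. Its smallest adjusted p for a member was 0.0634, for Scd1. At an unadjusted p it had 3 members higher and 2 lower (Cebpd and Cidec), against 3.7% and 3.31% of all genes. In limma-voom, 0 members passed in either direction after adjustment, against 0.0125% and 0.0748% of all genes. Without adjustment limma-voom had 3 higher and 1 lower (Cebpd), against 4.11% and 3.58%. Scd1 kept an unadjusted p under 0.05 in all 15 alternatives, and Gpd1 and Angptl4 did not.

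**Figure D2:**
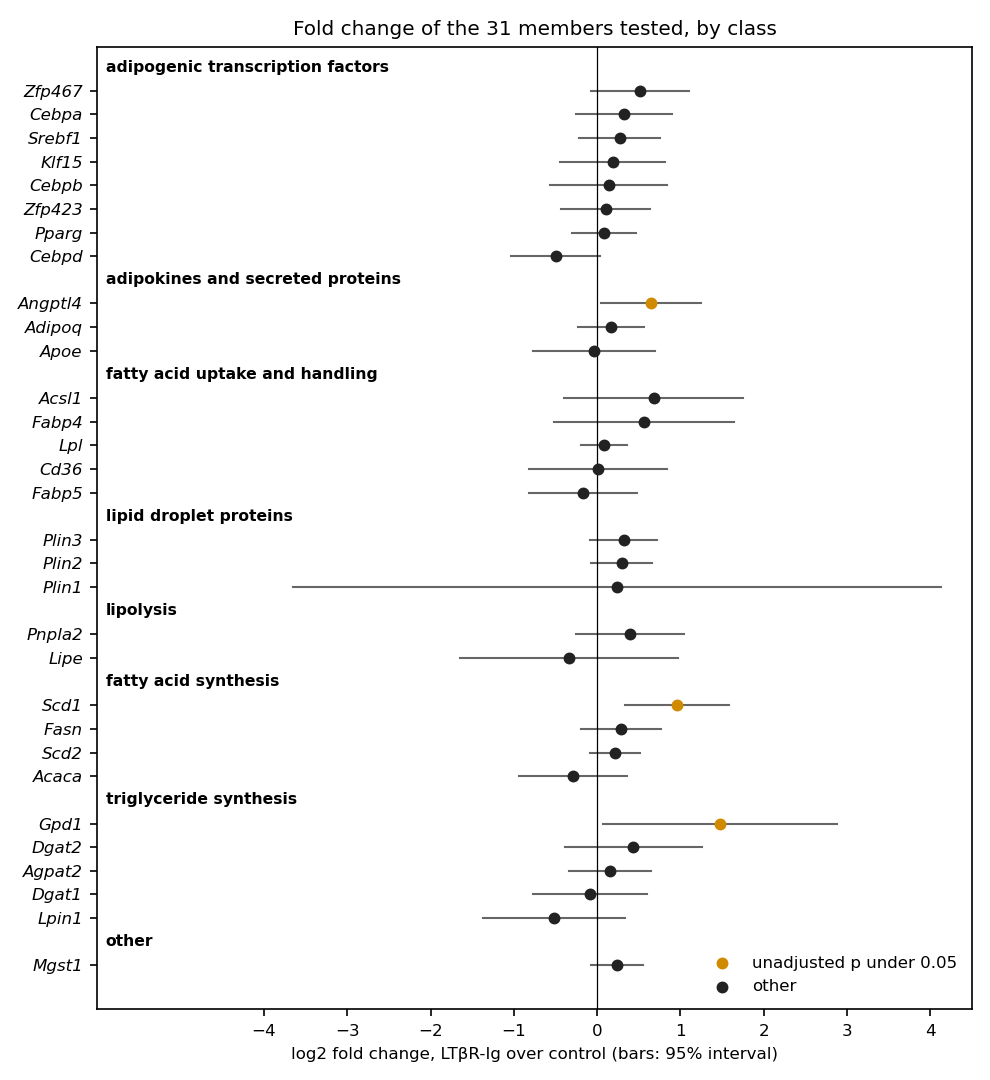
Log2 fold change of LTβR-Ig over control for the 31 members tested, by class, from edgeR; points are estimates and bars their 95% intervals, with orange for an unadjusted p under 0.05. Most points lie to the right of 0 and most bars cross 0; those of Angptl4, Scd1 and Gpd1 do not.

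The widths of the intervals set what these libraries can show. For 19 of 31 members (61.3%) the 95% interval lay inside a 2-fold difference in either direction, against 46.5% of all genes tested. For 5 members it lay inside a 1.5-fold difference: Pparg, Lpl, Adipoq, Scd2 and Mgst1, named after their values were seen. That is 16.1% of members, against 20.6% of all genes tested. The interval of Pparg ran from 0.814 to 1.38 times the control level, that of Lpl from 0.870 to 1.28 and that of Adipoq from 0.855 to 1.48. For Plin1 it ran from 0.0795 to 17.4 times, so no direction was detectable. Counts of Plin1 ran from 0 to 95 among the LTβR-Ig libraries and from 0 to 79 among the controls.

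Among the adipogenic transcription factors, 0 of 8 passed the test in either direction, and the median log2 fold change was 0.16. Pparg encodes the nuclear receptor without which adipocytes do not form. It had 149.6, 113, 162 and 107 CPM in LTβR-Ig libraries, and 113, 132, 148 and 109 CPM in control libraries. The groups overlapped over nearly their whole range (log2 fold change 0.08, SE 0.17). Cebpa, its partner factor, had 208, 339, 214 and 136 CPM in LTβR-Ig libraries, and 163, 198, 148 and 209 CPM in control libraries (log2 fold change 0.32, SE 0.25). Replicate 2 was the highest of the LTβR-Ig libraries and replicate 4 the lowest of all 8. Without LTβR-Ig replicate 2 the log2 fold change of Cebpa was 0.05.

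Cebpd, which acts early in adipogenesis and responds to glucocorticoid and inflammatory signals, had the lowest fold change of the factors. It had 22.7, 32.4, 19.6 and 18.1 CPM in LTβR-Ig libraries, and 40.3, 34.5, 31.3 and 25.2 CPM in control libraries. All but 1 LTβR-Ig library lay below all controls, and the gene did not pass (log2 fold change -0.50, SE 0.23, edgeR adjusted p = 0.816). Cebpb, its partner in the early cascade, had 7.87 ± 2.68 CPM in LTβR-Ig and 7.15 ± 1.23 CPM in control libraries (SD, n = 4 each). Zfp467, a zinc finger gene that favours adipocyte over osteoblast fate in mouse stromal cells, had 16.0, 24.1, 13.9 and 11.9 CPM in LTβR-Ig libraries, and 11.9, 9.80, 12.6 and 11.7 CPM in control libraries (log2 fold change 0.52, SE 0.26, edgeR adjusted p = 0.869). LTβR-Ig replicate 2 was its highest library, and without it the log2 fold change was 0.28. The groups overlapped for the remaining factors. Zfp423, a determinant of preadipocytes, had a log2 fold change of 0.10, the lipid regulator gene Klf15 0.18 and the lipogenic factor gene Srebf1 0.27.

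Exons of 9 members (Cebpa, Cebpb, Cebpd, Srebf1, Gpd1, Agpat2, Acsl1, Lipe and Plin4) are overlapped by genes on the other strand. No strand setting for the counting is given, so reads of such pairs may be mixed up. Spidr, a DNA repair gene that overlaps Cebpd, averaged 15.6 CPM in LTβR-Ig and 20.6 CPM in control libraries, a log2 fold change of -0.40 that points the same way as that of Cebpd. Gm16537, which overlaps Gpd1, averaged 0.483 CPM in LTβR-Ig and 0.851 CPM in control libraries, the opposite direction to Gpd1. Egfl7, an endothelial gene that overlaps Agpat2, averaged 12.7 CPM in LTβR-Ig and 9.19 CPM in control libraries.

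Of the secreted proteins, 3 of 5 members were tested and 0 passed. Adipoq had 5446, 3489.8, 3932 and 3550.0 CPM in LTβR-Ig libraries, and 4283, 3784, 3688 and 2837 CPM in control libraries. The highest library was LTβR-Ig replicate 1, the lowest was control replicate 4, and the others overlapped (log2 fold change 0.17, SE 0.17). Set against Lepr in the same library, the FPKM ratio of Adipoq to Lepr was 5.46 ± 1.42 in LTβR-Ig and 4.33 ± 0.715 in control libraries (SD, n = 4 each), again with overlap. Apoe had 425, 358, 678 and 529 CPM in LTβR-Ig libraries, and 281, 667, 732 and 363 CPM in control libraries. Its spread within each group was wider than the difference between the means, and its fold change turned sign when 1 of several libraries was left out.

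Angptl4 (ENSMUSG00000002289.15, chromosome 17, 33773750 to 33781830 in mm10) encodes a secreted inhibitor of lipoprotein lipase that PPARs and fasting induce. It had 427, 465, 378 and 604 CPM in LTβR-Ig libraries, and 293, 372, 161 and 371 CPM in control libraries. The groups did not overlap, but the lowest LTβR-Ig library, at 378 CPM, lay close to control replicates 2 and 4, at 372 and 371 CPM. The log2 fold change was 0.65 (SE 0.26, 95% interval 0.05 to 1.24, edgeR adjusted p = 0.745). Without control replicate 3, its lowest library, it was 0.44. Lpl, whose product ANGPTL4 inhibits, was nearly level between groups. Lpl had 4141, 3799, 3690.4 and 3371 CPM in LTβR-Ig libraries, and 4127, 3903, 3154 and 3009.8 CPM in control libraries, a log2 fold change of 0.08 with a 95% interval from -0.20 to 0.36.

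The median log2 fold change of the 5 genes of fatty acid uptake and handling was 0.08, and 0 passed. Fabp4, a cytosolic fatty acid carrier of adipocytes, macrophages and capillary endothelium, had 53.9, 75.9, 270.4 and 79.8 CPM in LTβR-Ig libraries, and 77.5, 73.3, 65.2 and 108 CPM in control libraries. Its log2 fold change of 0.57 (SE 0.48) rested on LTβR-Ig replicate 3 and was -0.21 without it. Cd36, a fatty acid transporter also made by endothelium, platelets and macrophages, had 37.1, 51.1, 107 and 66.7 CPM in LTβR-Ig libraries, and 38.2, 52.9, 79.7 and 89.1 CPM in control libraries. The same LTβR-Ig library was its highest. The log2 fold change of Cd36 was 0.01, and -0.33 without that library.

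LTβR-Ig replicate 3 also had the largest share of endothelial markers, and of macrophage (0.281%) and megakaryocyte (0.374%) markers. The sort left out cells with CD31 or CD144. The 12 endothelial markers took 0.00376, 0.00732, 0.0350 and 0.0144% in LTβR-Ig libraries, and 0.00745, 0.00596, 0.00960 and 0.0168% in control libraries, as shares of all counts. None of the 12 was at 0 in either group. All 12 had a fold change above 0 (median log2 fold change 0.59) and 0 passed the edgeR test. The part of endothelial, macrophage or megakaryocyte RNA in Fabp4 and Cd36 was not tested.

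Fabp5, a fatty acid carrier of many cell types, had 15.9 ± 5.27 CPM in LTβR-Ig and 17.9 ± 3.64 CPM in control libraries (SD, n = 4 each). Acsl1, which activates long-chain fatty acids with coenzyme A, had 54.2, 47.7, 24.95 and 54.1 CPM in LTβR-Ig libraries, and 15.6, 59.5, 23.7 and 14.3 CPM in control libraries. Control replicate 2 had the highest level of all 8, and the other 3 controls lay below every LTβR-Ig library. Acsl1 had a log2 fold change of 0.68 (SE 0.47) with control replicate 2 and 1.34 without it, and the edgeR adjusted p was 0.987 with it and 0.428 without.

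Of the droplet proteins, Plin2 and Plin3, the perilipins made outside mature fat cells, carried nearly all counts. Plin2, which coats small droplets in most cell types, had 113, 105, 121 and 91.8 CPM in LTβR-Ig libraries, and 111, 85.6, 86.1 and 68.1 CPM in control libraries (log2 fold change 0.30, SE 0.16, edgeR adjusted p = 0.914). Plin3, a widely made perilipin that moves between cytosol and droplets, had 45.5, 55.4, 57.3 and 69.0 CPM in LTβR-Ig libraries, and 41.2, 41.8, 40.6 and 58.5 CPM in control libraries (log2 fold change 0.32, SE 0.18, edgeR adjusted p = 0.927). Neither gene separated the groups alone. The summed level of the 5 droplet genes was 158, 163, 179 and 161 CPM in LTβR-Ig libraries, and 154, 129.6, 127 and 127 CPM in control libraries. These sums did not overlap under any of 4 scalings, but the class was chosen with results known, so this is a description and carries no test. Apart from fatty acid synthesis, the sums of every other class overlapped between groups under all 4 scalings. The sum for triglyceride synthesis, for example, averaged 88.0 CPM in LTβR-Ig and 87.7 CPM in control libraries. The FPKM ratio of Plin2 to Plin3 was 2.11 ± 0.518 in LTβR-Ig and 2.16 ± 0.682 in control libraries (SD, n = 4 each).

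For lipolysis, 0 of 2 genes passed. Pnpla2, the lipase gene that acts first on triglyceride, had 23.6, 27.5, 52.6 and 39.6 CPM in LTβR-Ig libraries, and 20.3, 29.0, 35.4 and 24.7 CPM in control libraries. The groups overlapped (log2 fold change 0.39, SE 0.29), and LTβR-Ig replicate 3 was the highest. Lipe, which acts on the next step, had 1.66 ± 0.625 CPM in LTβR-Ig and 2.09 ± 0.682 CPM in control libraries (SD, n = 4 each), with a 95% interval from 0.320 to 1.97 times the control level.

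In fatty acid synthesis, 0 of 4 passed, and the desaturase gene Scd1 was the member with the smallest p. Scd1 (ENSMUSG00000037071.2, chromosome 19, 44394455 to 44407879 in mm10) encodes stearoyl-CoA desaturase, which makes oleic acid, a main fatty acid of stored triglyceride. It had 128, 168, 162 and 82.7 CPM in LTβR-Ig libraries, and 57.1, 71.4, 50.2 and 99.7 CPM in control libraries. The replicates numbered 4 crossed, and the other 3 LTβR-Ig libraries lay above all controls. The level was 1.95 times that of control (log2 fold change 0.96, SE 0.28, 95% interval 0.34 to 1.59, edgeR adjusted p = 0.457). Leaving out each library gave 0.84 to 1.19, and the edgeR adjusted p was 0.306 to 0.799.

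The paralog Scd2, the form made in most mouse tissues other than liver, had 94.2, 117, 100.4 and 105 CPM in LTβR-Ig libraries, and 102, 98.3, 83.9 and 74.6 CPM in control libraries (log2 fold change 0.22, SE 0.13). The FPKM ratio of Scd1 to Scd2 was 1.52, 1.61, 1.80 and 0.880 in LTβR-Ig libraries, and 0.626, 0.811, 0.668 and 1.49 in control libraries, so replicate 4 stood apart in both groups. The difference between the paralogs was not tested, and reads of such close copies may be shared. Scd3 and Scd4 had 0 counts in all 8 libraries. Fasn, the fatty acid synthase gene, had 21.3 ± 3.85 CPM in LTβR-Ig and 17.5 ± 3.09 CPM in control libraries (SD, n = 4 each), a log2 fold change of 0.29. Acaca, which makes the malonyl-CoA that Fasn uses, had 24.6 ± 3.61 CPM in LTβR-Ig and 30.0 ± 11.4 CPM in control libraries (SD, n = 4 each), a log2 fold change of -0.29. The summed level of the 4 genes was 263, 327, 311 and 240.1 CPM in LTβR-Ig libraries, and 205, 214, 198 and 209 CPM in control libraries. These sums did not overlap under any of 4 scalings, whereas those of every class but this one and the droplet proteins did. They averaged 285 CPM in LTβR-Ig and 207 CPM in control libraries, of which Scd1 made up 135 CPM in LTβR-Ig and 69.6 CPM in control libraries. They too carry no test.

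**Figure D3:**
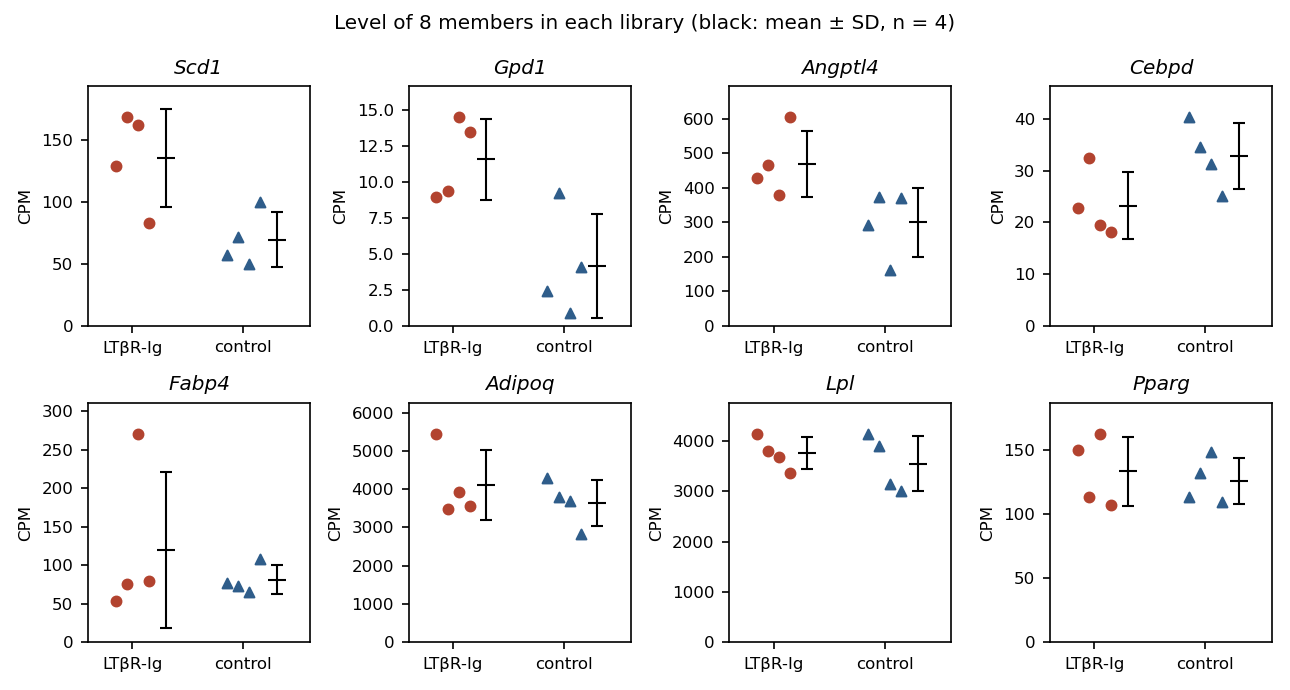
Level of 8 members in CPM, with LTβR-Ig libraries as circles on the left and control libraries as triangles on the right of each panel; black bars are mean ± SD (n = 4). Scd1, Gpd1 and Angptl4 have the unadjusted p-values under 0.05, Cebpd has the lowest fold change among the transcription factors, the LTβR-Ig mean of Fabp4 rests on 1 library at 270.4 CPM, and Adipoq, Lpl and Pparg overlap between groups.

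For triglyceride synthesis, 0 of 5 genes passed, and the median log2 fold change was 0.15. Gpd1 (ENSMUSG00000023019.12, chromosome 15, 99717515 to 99725005 in mm10) makes the glycerol 3-phosphate on which triglyceride is built. It had 8.96, 9.38, 14.5 and 13.4 CPM in LTβR-Ig libraries, and 2.40, 9.25, 0.910 and 4.09 CPM in control libraries. Control replicate 2 lay inside the LTβR-Ig range and the other controls below it. The level was 2.77 times that of control, with a 95% interval from 1.05 to 7.36 times (log2 fold change 1.47, SE 0.62, edgeR adjusted p = 0.766). Without control replicate 2 the log2 fold change was 2.23, and without control replicate 3 it was 1.14.

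The members that act in later steps had no common direction. Agpat2, which adds the second fatty acid, had 28.6 ± 2.28 CPM in LTβR-Ig and 25.8 ± 7.10 CPM in control libraries (SD, n = 4 each). Lpin1, the phosphatidate phosphatase gene, had 12.4, 39.2, 27.2 and 21.1 CPM in LTβR-Ig libraries, and 49.6, 43.6, 24.0 and 26.1 CPM in control libraries (log2 fold change -0.52, SE 0.38). Controls 1 and 2 were its highest libraries and LTβR-Ig replicate 1 its lowest. The last step is carried by DGAT1 and DGAT2, whose genes had log2 fold changes of -0.09 for Dgat1 (SE 0.30) and 0.43 for Dgat2 (SE 0.36). Mgst1 had 499.8, 724, 649.9 and 676 CPM in LTβR-Ig libraries, and 627, 545, 465 and 521 CPM in control libraries. LTβR-Ig replicate 1 lay among the controls (log2 fold change 0.24, SE 0.14).

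Which library stood highest differed from member to member. The members' median coefficient of variation was 25.4% in LTβR-Ig and 23.5% in control libraries. LTβR-Ig replicate 2 was the highest of its group for 12 of 31 members and replicate 4 the lowest for 13. Over all genes tested, each LTβR-Ig library was the highest for 24.0 to 26.1%, and replicate 4 the lowest for 22.2%. Among controls, replicate 1 was the highest for 12 members, against 25.2% of all genes tested. Control replicate 3 was the lowest for 12 members, against 27.4% of all genes tested. The 12 members highest in LTβR-Ig replicate 2 were Cebpa, Cebpb, Cebpd, Zfp467, Klf15, Srebf1, Plin1, Scd1, Scd2, Lpin1, Dgat1 and Mgst1. LTβR-Ig replicate 3 was the highest of its group for 10 members: Pparg, Apoe, Cd36, Fabp4, Fabp5, Plin2, Pnpla2, Fasn, Gpd1 and Dgat2.

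**Figure D4:**
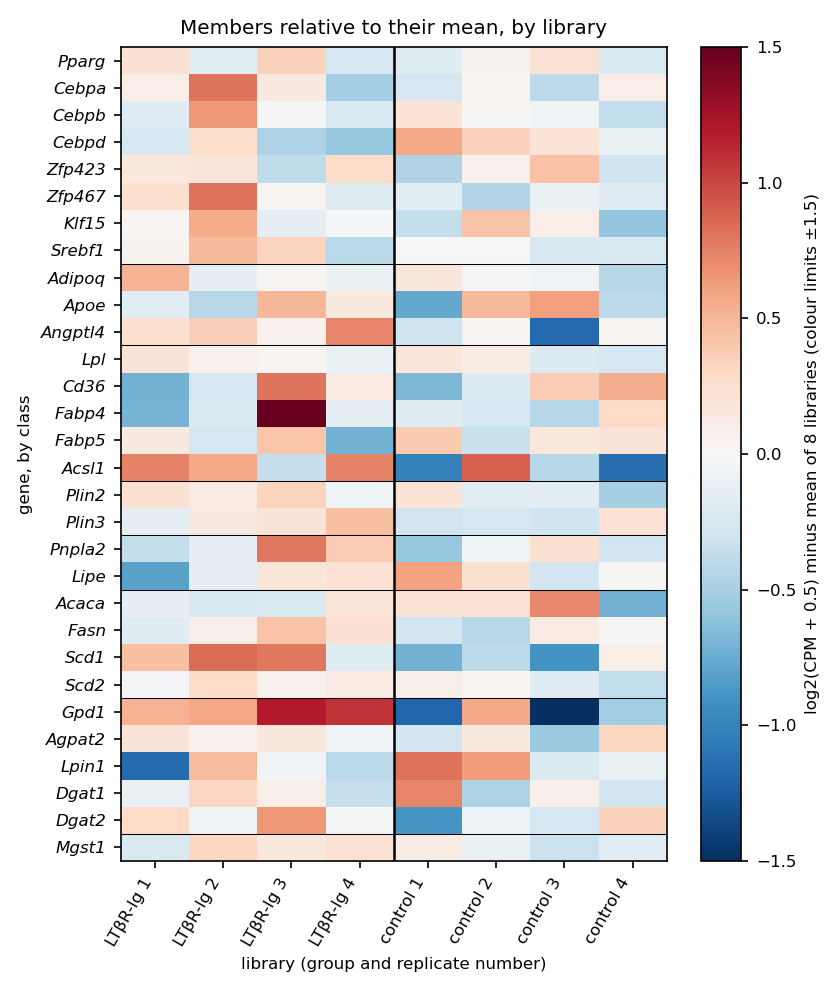
Level of 30 members in each library as log2(CPM + 0.5) minus the mean of the 8 libraries, with LTβR-Ig libraries left of the black line and control libraries right of it; thin lines part the classes and colours end at ±1.5. Scd1 and Gpd1 are mostly red on the left and blue on the right, Fabp4 is dark in LTβR-Ig replicate 3, and most other genes vary within groups. Plin1 and the 4 untested genes are left out.

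Other genes of the same pathways were read from lists that hold no member, and 0 of their genes passed after adjustment. Over all genes tested, 3.39% were higher and 2.93% lower by the unadjusted edgeR p. The groups did not overlap for 2.36% of all genes upward and 2.53% downward. Among 23 adipogenic regulators tested, 1 had a higher level and 0 a lower one by the unadjusted p (median log2 fold change 0.01). This was Creb1, a factor that induces C/EBP genes early in adipogenesis, with 41.9, 69.7, 71.5 and 11.2 CPM in LTβR-Ig libraries, and 9.09, 7.82, 7.46 and 5.39 CPM in control libraries. All LTβR-Ig libraries lay above all controls (log2 fold change 2.71, SE 0.52, edgeR adjusted p = 0.165). The next smallest p-values belonged to the oxysterol receptor gene Nr1h3, with a log2 fold change of 0.32, Klf4 with 0.80 and Foxo1 with 0.41. Among 19 restrainers of adipogenesis, 1 was on the higher side and 0 on the lower (median 0.20). It was Klf2, whose product represses Pparg, with 16.0, 23.6, 21.3 and 24.6 CPM in LTβR-Ig libraries, and 12.0, 6.64, 14.9 and 8.82 CPM in control libraries. Its groups did not overlap (log2 fold change 1.01, SE 0.29, edgeR adjusted p = 0.454). Next came Wnt5b with 0.53, Ctnnb1 with 0.20 and Lmna with 0.23. The preadipocyte factor gene Dlk1 had 0 counts in all libraries.

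Among 25 other genes of fatty acid and triglyceride synthesis, 2 were on the higher side by the unadjusted p and 0 on the lower, and 21 had a fold change above 0 (median 0.13). Elovl6, which lengthens the fatty acids that SCD1 desaturates, had 17.4, 15.4, 17.8 and 25.2 CPM in LTβR-Ig libraries, and 14.3, 11.5, 11.7 and 14.1 CPM in control libraries. The groups did not overlap (log2 fold change 0.56, SE 0.22, edgeR adjusted p = 0.698). Srebf2, a sterol-responsive transcription factor gene, had a log2 fold change of 0.63, the malic enzyme gene Me1 0.49 and the acyltransferase gene Gpat4 0.25. Among 16 other genes of fatty acid uptake, 2 were on the higher side and 1 on the lower (median 0.29). Angptl2, which encodes a secreted relative of ANGPTL4, had 87.1, 91.4, 48.8 and 71.7 CPM in LTβR-Ig libraries, and 31.8, 45.2, 37.7 and 36.3 CPM in control libraries. All LTβR-Ig libraries lay above all controls (log2 fold change 0.98, SE 0.21, edgeR adjusted p = 0.223). Dbi, whose product binds acyl-CoA, had a log2 fold change of 0.43, Acsl4 of -0.41 and Slc27a3 of 0.85.

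Among 15 other droplet and lipolysis genes, 1 was on the higher and 1 on the lower side (median 0.15). Ces1d, a lipase gene of adipocytes and liver with close paralogs, had 5.69, 1.98, 3.74 and 7.63 CPM in LTβR-Ig libraries, and 13.7, 11.8, 14.1 and 20.4 CPM in control libraries. All LTβR-Ig libraries lay below all controls (log2 fold change -1.66, SE 0.42, edgeR adjusted p = 0.356). Abhd5, which encodes the activator of the Pnpla2 lipase, had a log2 fold change of 0.29, Adrb3 of -0.48 and Acsl3 of 0.46. The 22 genes of fatty acid oxidation had a median of 0.05, with 0 on either side. The smallest p-values there belonged to Hadhb (-0.30), Acads (0.70), Ppard (-1.08) and Cpt1a (0.34).

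Markers of other cells were set beside these genes. Over all genes tested, 49.7% had a fold change above 0 and 3.39% were higher by the unadjusted edgeR p. All LTβR-Ig libraries lay above all controls for 2.36% of all genes tested. Of 10 osteoblast markers, the other fate of LEPR+ cells, 9 had a fold change above 0 (median log2 fold change 0.44) and 0 passed. At an unadjusted edgeR p, 3 were on the higher side: Alpl (0.95), Sp7 (0.95) and Phex (0.34). Alpl had 544, 469.6, 662 and 459 CPM in LTβR-Ig libraries, and 201, 249, 272 and 382 CPM in control libraries, with no overlap between groups. The osteoblast list took 1.32 to 2.13% of counts in LTβR-Ig and 1.22 to 2.59% in control libraries, and none of it was at 0 in either group. The 14 macrophage markers, none of them at 0 in either group, took 0.113, 0.155, 0.281 and 0.174% in LTβR-Ig libraries, and 0.148, 0.104, 0.236 and 0.225% in control libraries, as shares of all counts. Of these 14, 11 had a fold change above 0 and 0 passed. Macrophages also make Apoe, Plin2, Cd36 and Fabp4. The 11 megakaryocyte markers took 0.0957 to 0.374% of counts in LTβR-Ig and 0.0656 to 0.273% in control libraries, and all 11 had a fold change above 0 while 0 passed. The 15 mature adipocyte markers took 0.377 to 0.573% of counts in LTβR-Ig and 0.349 to 0.458% in control libraries, most of it Adipoq, and Lep and Pck1 were at 0 in all libraries. Of the 11 tested, 8 had a fold change above 0 and 0 passed. By the unadjusted edgeR p, 2 were higher, Nnat (log2 fold change 1.88) and the member Gpd1 (1.47). Ces1d was lower (-1.66), with no overlap between groups. Over all genes tested, 2.93% were lower by the unadjusted p. Most other lists leaned lower. Fold changes above 0 were held by 1 of 12 neutrophil, 2 of 12 B and plasma cell and 2 of 11 erythroid markers. So they were by 2 of 7 T and NK cell, 1 of 4 Schwann cell and 7 of 10 smooth muscle and pericyte markers. By the unadjusted edgeR p, 2 neutrophil and 1 smooth muscle marker were lower, against 2.93% of all genes tested. On the higher side was 1 Schwann cell marker. The part of these cells in the members' values was not tested.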

How the data were processed

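LEPR+ cells were sorted from digested long-bone marrow as live cells negative for CD45, Ter119, CD31 and CD144, per the labels' protocols, and their RNA gave paired reads of 76 bp. The authors deposited raw gene counts, without normalization, for 52636 genes in 8 libraries. Per the submitters' processing notes, HISAT2, HTSeq and mm10 were used, with no version, annotation release or strand setting given in the sources used here. Symbols, coordinates and exon lengths were taken from the GENCODE M21 annotation of GRCm38 (mm10), and 52403 gene IDs matched without their version. FPKM divides by the union of annotated exons.

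The test was edgeR 4.0.16 in R 4.3.3 on all 8 libraries: TMM scaling, filterByExpr by group (minimum count 10, minimum total 15), robust glmQLFit and the quasi-likelihood F test, with a threshold of 0.05 after Benjamini-Hochberg adjustment over 16045 genes. Each SE is the absolute log2 fold change over the root of F. The code was tested on simulated counts. Pairs of libraries within a group differed by far more than sampling noise, so all were kept. Alternatives were other scalings, DESeq2 1.42.0 on all detected genes, limma-voom (limma 3.58.1) with sample weights, other filters, the replicate block, and leaving out each library.

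The members and lists were chosen with earlier results of these data known. All members are named by rule. Per-library values were to be given for members with an unadjusted p under 0.05, for the most abundant member of each class, and for members that a library standing apart or left out turned. Of each other list, up to 4 genes with the smallest p were named. Further per-library values, and Dlk1, Scd3, Scd4 and Pck1, were added after values were seen.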

Additional observations from a re-analysis of the deposited data

Results flagged for a closer look

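Of 62 pairs of a gene and a group examined, 3 held a library that stood apart from the other 3 of its group, and chance gives about 1 in 20. Fabp4, the fatty acid carrier gene, reached 270.4 CPM in LTβR-Ig replicate 3, and the other LTβR-Ig libraries lay between 53.9 and 79.8 CPM. Plin1, the droplet coat gene, reached 1.79 CPM in LTβR-Ig replicate 2, and the other LTβR-Ig libraries lay between 0 and 0.300 CPM. Plin3 reached 58.5 CPM in control replicate 4, and the other controls lay between 40.6 and 41.8 CPM.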

How the results depend on the processing

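No member passed at an adjusted p of 0.05 under any of the 15 alternatives, and 22 of 31 members kept the sign of their fold change in every alternative that tested them. The strict filter left out Lipe and Plin1. Over all genes, calls higher and lower after adjustment numbered 0 and 6 in edgeR, 167 and 171 in DESeq2, 2 and 12 in limma-voom, and 5 and 17 with the strict filter (at least 10 counts in 4 libraries and a mean of 5 CPM). There were 2 higher calls with DESeq2 size factors and 2 with no filter, and leaving out each library gave 0 to 2 higher and 2 to 7 lower. At an unadjusted p, DESeq2 gave 960 and 857 of all genes and no filter 999 and 767, where more genes were tested (25923 in each). Members lower at an unadjusted p numbered 2 in DESeq2, 1 in limma-voom and 1 with no filter, against 0 in edgeR. The shares of all genes lower were 3.31% in DESeq2, 3.58% in limma-voom, 2.96% with no filter and 2.93% in edgeR. Without each library in turn, 1 to 4 members were on the higher and 0 to 2 on the lower side by the unadjusted p, against 2.74 to 3.99% and 2.48 to 3.37% of all genes. Only Scd1 was left higher without LTβR-Ig replicate 2. The groups did not overlap for 1 to 4 members upward, with 4 on leaving out either library numbered 4, and for 0 to 1 downward, against 3.56 to 4.47% and 3.56 to 4.32% of all genes. The median over members was 0.15 to 0.25.

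The design text speaks of pairs, and the main test used no pairing. Deviations of same-numbered libraries correlated between -0.000539 and 0.0958, and some libraries but not all matched their own number best. Weak correlations of this kind cannot show whether the libraries were paired. With the number as a block, 1 gene was called lower, and 5 members were on the higher and 1 on the lower side by the unadjusted p, against 3.66% and 2.91% of all genes. The 5 were Scd1, Gpd1, Angptl4, Plin2 and Plin3, and the lower member was Cebpd.

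Log2 fold changes of 9 members turned sign under an alternative, none past the threshold, and the cause was not tested. Apoe (-0.04) had 0.0531 in limma-voom, 0.0372 with the block, and -0.24 to 0.19 as each library was left out. Cd36 (0.01) had -0.0216 with the block and -0.33 to 0.21 across left-out libraries. Plin1 (0.23) had -0.48 in limma-voom and -1.66 to 1.27 across left-out libraries, the lowest without LTβR-Ig replicate 2. Ranges across left-out libraries were -0.0200 to 0.18 for Pparg and -0.21 to 0.81 for Fabp4 (both lowest without LTβR-Ig replicate 3), -0.13 to 0.24 for Cebpb (lowest without LTβR-Ig replicate 2), -0.0136 to 0.30 for Zfp423 (lowest without control replicate 1), -0.36 to 0.000417 for Fabp5 (highest without LTβR-Ig replicate 4) and -0.23 to 0.22 for Dgat1 (highest without control replicate 1).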

Other observations

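Of 10 markers of brown and beige adipocytes, 5 had 0 counts in all libraries (Ucp1, Elovl3, Cox8b, Zic1 and Lhx8), and 0 of the 4 tested passed. Dio2, which activates thyroid hormone, had 2.90, 0.132, 0.406 and 23.9 CPM in LTβR-Ig libraries, and 1.05, 0, 0.660 and 3.67 CPM in control libraries, with LTβR-Ig replicate 4 far above the rest. Cidea had 51 counts in LTβR-Ig replicate 4 and 0 in the other libraries. Prdm16, a regulator of brown fat fate, averaged 6.38 CPM in LTβR-Ig and 6.43 CPM in control libraries.

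Car3, a carbonic anhydrase gene of fat and muscle, had 146, 249, 841 and 323 CPM in LTβR-Ig libraries, and 138, 113, 200.1 and 572 CPM in control libraries. The highest Car3 library, LTβR-Ig replicate 3, was also the highest for Fabp4. Aqp7, the glycerol channel gene of adipocytes, had 48.1, 43.6, 54.8 and 31.9 CPM in LTβR-Ig libraries, and 43.2, 42.9, 20.2 and 30.4 CPM in control libraries. Cfd, the adipsin gene, which mature adipocytes make in large amounts, had 2.09, 4.94, 8.85 and 3.89 CPM in LTβR-Ig libraries, and 2.89, 2.47, 6.81 and 10.0 CPM in control libraries. None of these 3 genes passed the edgeR test after adjustment, and they were named after their values were seen.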
